A study of Mus musculus with 25 samples.

Results

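Transcripts of 6 adipocyte genes (Adipoq, Car3, Plin1, Cfd, Cidec and Retn) and 4 stromal genes (Dcn, Gsn, Col1a1 and Col3a1) were followed through RNA libraries of sorted macrophages and monocytes. The 10 genes were taken by symbol from a table of 24537 gene models, as transcripts that are abundant in fat cells or in fibroblasts. They were read in all 25 libraries, to ask which sorts and which diets carried them and whether both sets moved together. All mice were C57BL6, with no other genotype given, and ate a high fat diet (HFD, 45% fat) or a control diet (CD, 10% fat). From white adipose tissue (eWAT in the titles) 4 populations were sorted: pop1 was Tim4+ with low MHCII, pop2 Tim4+ with high MHCII, pop3 Tim4- and CD11c- with high MHCII, and pop4 Tim4-, CD11c+ and MHCII+. Monocytes came from blood, by a gate on CD115 and Ly6C. Each library came from 200 sorted cells. Each adipose population had 2 HFD libraries (numbered 2 and 3 in the titles) and 2 CD libraries (numbered 7 and 8, titled CD-CD). Monocytes had 3 HFD and 6 CD libraries. The CD libraries of monocytes numbered 1, 2 and 3 were titled CD, and those numbered 6, 7 and 8 CD-CD. Both title series were taken as 1 CD group. The labels give neither the age of the mice, nor the length of the diets, nor the number of animals behind a library.

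Libraries held 3752835 to 9336395 counts. Levels are given as CPM, the counts of a gene on a per-million scale of the library total. A floor of 3 counts, the upper limit that a count of 0 allows, was 0.321 to 0.799 CPM and covers counting error only. The labelled cells carried their own markers. The sum of 12 macrophage genes (Csf1r, Adgre1, C1qa and others) was 4770 to 8740 CPM in adipose libraries and 3970 to 4640 CPM in monocytes. By the edgeR test given below, 6 of the 12 were called higher in adipose libraries and 3 lower, where 18.5% of all genes went each way. Lyz2 averaged 1100 CPM in adipose libraries and 2030 CPM in monocytes, Cd68 470 and 598 CPM, and Fcgr1 89.2 and 239 CPM. The sum of 9 monocyte genes (Ly6c2, Ccr2, Plac8 and others) was 1470 to 2600 CPM in adipose libraries and 5210 to 6780 CPM in monocytes. By edgeR all 9 were called lower in adipose libraries, though F13a1 averaged 1110 CPM there and 1100 CPM in monocytes. The fat pads were taken apart with collagenase, with flavopiridol added to stop transcription, and no digestion is described for blood, so tissue, gate and handling cannot be told apart where adipose cells are set against monocytes.

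White adipose tissue is built of adipocytes, which store triglyceride in 1 large lipid droplet and secrete hormones, and of a stroma of fibroblasts and progenitors that lays down collagen. Macrophages lie between these cells and take up lipid and dead adipocytes. Of the adipocyte genes, Adipoq, Retn and Cfd encode secreted proteins (adiponectin, resistin and adipsin, the complement factor D), Cidec and Plin1 encode proteins of the lipid droplet, and Car3 encodes a cytosolic carbonic anhydrase that is abundant in rodent fat. Of the stromal genes, Dcn encodes the matrix proteoglycan decorin, Col1a1 and Col3a1 encode chains of the fibrillar collagens, and Gsn encodes gelsolin, an actin-severing protein that many cell types make, macrophages among them.

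The 10 genes are not neighbours: on the mm10 build, Adipoq is at chr16:23146536-23157968, Car3 at chr3:14863538-14872373, Retn at chr8:3655770-3659818, Dcn at chr10:97479500-97518163, Gsn at chr2:35266744-35307902, Col1a1 at chr11:94936224-94953042, Cfd at chr10:79890853-79892655 and Col3a1 at chr1:45311538-45349706, all on the plus strand. On the minus strand are Plin1, at chr7:79721164-79732776, and Cidec, at chr6:113424634-113435760. Promoter windows (250 bases before and 50 after the transcription start, RefSeq, GRCm38.p6) were on hand for 7 of the 10 genes. Those of 3 genes are shown because Adipoq and Retn had the highest correlation within the adipocyte set and Col3a1 tracked Dcn in the stromal set. Capitals mark matches, on either strand, to the TATA box (searched as TATAAA), the CCAAT box (searched as CCAAT) or a C/EBP motif (searched as TTGCNNAA). The windows are chr16:23146286-23146585 for Adipoq, chr8:3655520-3655819 for Retn and chr1:45311288-45311587 for Col3a1, plus strand, printed 5′ to 3′.
Adipoq: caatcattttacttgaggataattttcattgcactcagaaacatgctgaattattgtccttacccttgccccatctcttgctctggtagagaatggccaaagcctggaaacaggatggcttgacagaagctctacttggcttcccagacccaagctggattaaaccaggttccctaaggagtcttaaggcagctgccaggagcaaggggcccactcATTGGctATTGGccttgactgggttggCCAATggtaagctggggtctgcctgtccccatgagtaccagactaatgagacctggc
Retn: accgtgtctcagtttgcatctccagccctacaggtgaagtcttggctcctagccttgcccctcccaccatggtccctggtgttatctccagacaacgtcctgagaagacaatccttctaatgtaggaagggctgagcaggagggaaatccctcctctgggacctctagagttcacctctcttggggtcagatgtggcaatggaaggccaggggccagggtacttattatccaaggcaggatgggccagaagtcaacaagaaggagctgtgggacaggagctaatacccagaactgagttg
Col3a1: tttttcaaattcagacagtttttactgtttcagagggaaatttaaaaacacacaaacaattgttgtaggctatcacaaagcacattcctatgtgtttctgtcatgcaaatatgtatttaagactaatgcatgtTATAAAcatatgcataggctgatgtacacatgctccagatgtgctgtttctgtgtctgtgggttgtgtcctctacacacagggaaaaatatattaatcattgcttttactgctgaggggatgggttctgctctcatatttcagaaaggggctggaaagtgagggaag
The Adipoq window held 3 CCAAT matches that do not overlap each other, and none of the other motifs. The Col3a1 window held 1 TATAAA, and the Retn window none of the 3 motifs. Of 32851 windows of the same length, 37.4% held CCAAT, 13.6% TATAAA and 10.8% TTGCNNAA. Such matches describe the letters only.

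**Figure D1:**
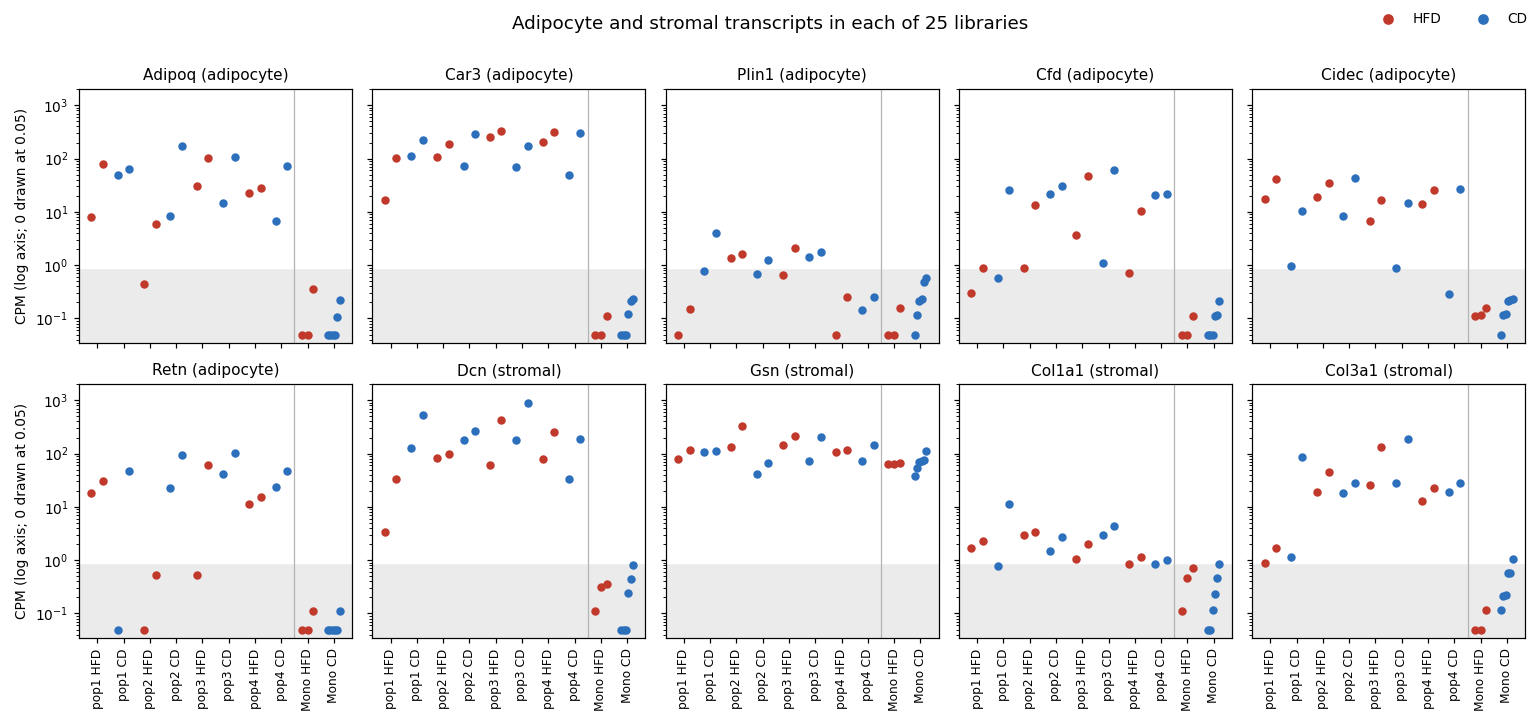
CPM (vertical, log axis; a value of 0 is drawn at 0.05) of each gene in the 25 libraries, by group along the horizontal axis, HFD in red and CD in blue; each point is 1 library and the grey band ends at the highest floor, 0.799 CPM. Car3 and Dcn lie above the band in all 16 adipose libraries and at its top or inside it in all 9 monocyte libraries, Gsn lies above it everywhere, and Plin1 and Col1a1 lie near it.

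Car3, Adipoq, Cidec and Cfd were above the floor in at least 1 library of every adipose sort on both diets, and all 6 adipocyte genes were near 0 in blood monocytes. Retn did not exceed the floor in pop2 HFD, and Plin1 in neither pop1 HFD nor any pop4 library. Car3 was the most abundant. Values are given by title number, 2 and 3 for HFD and 7 and 8 for CD. In pop1, Car3 was at 16.7 and 103 CPM on HFD and at 113 and 221 CPM on CD, and in pop2 at 105 and 188 CPM on HFD and at 71.2 and 293 CPM on CD. In pop3 it was at 328 and 249 CPM on HFD and at 70.8 and 175 CPM on CD, and in pop4 at 204 and 310 CPM on HFD and at 49.6 and 299 CPM on CD. Monocytes had 0 to 0.234 CPM of Car3, from 0 to 2 counts per library, so the lowest adipose library stood far above the highest monocyte library.

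Adipoq varied more. It was at 79.3 and 7.88 CPM in pop1 HFD and at 62.6 and 49.8 CPM in pop1 CD, and at 0.446 and 5.86 CPM in pop2 HFD and 8.24 and 172 CPM in pop2 CD. In pop3 it was at 30.8 and 104 CPM on HFD and at 14.9 and 108 CPM on CD, and in pop4 at 28.6 and 23.1 CPM on HFD and at 6.8 and 73.8 CPM on CD. The lowest, pop2 HFD 2, had 2 counts, under the floor of that library, and the highest, pop2 CD 8, had 1009 counts. Monocytes had 0 to 0.353 CPM.

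Retn, whose product is an adipocyte hormone in mice, was at 0 in 1 of the 2 pop1 CD libraries and high in the other. It was at 18.1 and 30.3 CPM in pop1 HFD and at 0 and 47.6 CPM in pop1 CD, and at 0 and 0.533 CPM in pop2 HFD and 22.8 and 95.7 CPM in pop2 CD. In pop3 it was at 0.516 and 61.9 CPM on HFD and at 42.2 and 104 CPM on CD, and in pop4 at 11.2 and 15 CPM on HFD and at 24.1 and 47.6 CPM on CD. The counts of 0 allow up to 0.67 CPM in pop2 HFD 2 and up to 0.587 CPM in pop1 CD 7. Cfd ranged from 0.302 to 60.5 CPM with a median of 11.9 CPM over the 16 adipose libraries, and the lowest was pop1 HFD 2 and the highest pop3 CD 8. Cidec ranged from 0.283 CPM in pop4 CD 7 to 43.7 CPM in pop2 CD 8, with a median of 15.7 CPM. Monocytes had at most 0.111 CPM of Retn, 0.214 CPM of Cfd and 0.232 CPM of Cidec. Of the 16 adipose libraries, 16 exceeded the floor in Car3, 15 in Adipoq and Cidec, 14 in Cfd, 13 in Retn and 10 in Plin1.

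The stromal genes were led by Dcn. It was at 3.32 and 34 CPM in pop1 HFD and at 127 and 536 CPM in pop1 CD, and at 100 and 83.4 CPM in pop2 HFD and 270 and 183 CPM in pop2 CD. In pop3 it was at 62.2 and 431 CPM on HFD and at 897 and 179 CPM on CD, and in pop4 at 79.3 and 249 CPM on HFD and at 33.6 and 191 CPM on CD. Every adipose library stood above the monocytes, which had 0 to 0.82 CPM. Both pop1 HFD libraries were below both pop1 CD libraries, as in pop2, while in pop3 and pop4 the diets overlapped.

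Col3a1 was at 1.66 and 0.895 CPM in pop1 HFD and at 1.17 and 85.4 CPM in pop1 CD, and at 19.2 and 44.8 CPM in pop2 HFD and 28.3 and 18.4 CPM in pop2 CD. In pop3 it was at 25.5 and 134 CPM on HFD and at 191 and 27.8 CPM on CD, and in pop4 at 12.7 and 22.3 CPM on HFD and at 18.7 and 28 CPM on CD. The 3 libraries highest in Dcn, which were pop1 CD 8, pop3 CD 7 and pop3 HFD 3, were also the 3 highest in Col3a1. Monocytes had up to 1.07 CPM of Col3a1, more than the lowest pop1 library.

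Gsn behaved unlike the matrix genes, with 41.4 to 326 CPM in adipose libraries (median 115) and 37.9 to 111 CPM in monocytes (median 67.4). The ranges overlapped, and Gsn made up most of the summed stromal level of the monocytes, 38.6 to 111 CPM. The stromal sum is therefore also given without it, as Dcn plus Col1a1 plus Col3a1, which was 6.64 to 1090 CPM in adipose libraries and 0.214 to 2.14 CPM in monocytes. The adipocyte sum was 102 to 627 CPM in adipose libraries and 0.231 to 0.964 CPM in monocytes. In such bulk libraries, fewer cells of a type and less RNA per cell cannot be told apart.

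All 10 genes were called higher in adipose macrophages than in monocytes by edgeR's quasi-likelihood test, with Benjamini-Hochberg adjustment over 16961 genes and a threshold of 0.05. In this comparison 37% of all genes were called, and 18.5% were called higher. The median log2 difference was 7.02 over the 10 genes and 0.19 over all genes. The 10 genes were chosen with earlier results of these data known, so setting them against all genes is a description only. Car3 had a log2 difference of 10.78 (SE 0.78, adjusted p = 8.34e-10), Dcn 9.01 (SE 0.88, adjusted p = 8.46e-08) and Adipoq 8.32 (SE 1.13, adjusted p = 7.51e-06). Retn, Col3a1, Cfd and Cidec had log2 differences of 6.45 to 8.46. Those 7 genes had few or no counts in monocytes, so the size of the fitted difference depends on the prior count that edgeR adds. In Adipoq, Car3, Cfd, Cidec and Dcn every adipose library exceeded every monocyte library, a separation that 1.63% of all genes tested showed. For Adipoq, Cfd and Cidec the lowest adipose library had 2 counts, under the floor, and for Cfd pop1 CD 7 had 3 counts, at the floor. These libraries are not separated from monocytes beyond counting error in those genes.

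The other 3 genes differed less, and the calls of Gsn and Plin1 rested on single libraries and settings. Gsn had a log2 difference of 0.64 (SE 0.24, adjusted p = 0.0395), Plin1 2.09 (SE 0.74, adjusted p = 0.0313) and Col1a1 2.41 (SE 0.68, adjusted p = 0.00905). Over 33 alternative fits, Gsn was called in 11, with log2 differences of 0.33 to 0.91 and edgeR or DESeq2 adjusted p of 0.00247 to 0.441. It lost its call without any 1 of 17 of the 25 libraries, all other than pop1 HFD 3, pop2 HFD 2, pop2 CD 8, pop3 HFD 2, pop3 CD 8, pop4 CD 8 and the monocyte libraries CD 1 and CD 3. Plin1 was called in 19 alternatives, with log2 differences of 1.62 to 3.04. It lost its call without any 1 of pop1 CD 8, pop2 CD 7, pop3 HFD 3, pop3 CD 8 and pop4 CD 8. The same held without either of the monocyte libraries HFD 1 and HFD 3. Without pop1 HFD 2 or pop4 HFD 3, Plin1 was not called either. There the library left in the group had 0 Plin1 counts and the fit gave no usable error.

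Plin1 and Col1a1 lay close to the background of the libraries. Plin1, which encodes the main coat protein of the adipocyte lipid droplet, was at 0 to 4.01 CPM in adipose libraries (median 0.733) and at 0 to 0.586 CPM in monocytes, and both groups held values of 0. Col1a1 was at 0.783 to 11.4 CPM in adipose libraries (median 1.83) and at 0 to 0.833 CPM in monocytes, with pop1 CD 8 highest. Olfactory and vomeronasal receptor genes were taken as a measure of reads that come from no expressed gene, without a screen for members that are expressed. Over 1456 of them, divided by their summed length, the background was 0.048 to 0.468 CPM per kilobase in adipose libraries (median 0.218) and 0.0511 to 0.145 in monocytes. Per kilobase of its own gene model, Plin1 had a median of 0.385 CPM in adipose libraries and Col1a1 0.311 CPM, a median of 1.92 and 1.88 times the background of the same library. Plin1 exceeded 3 times the background in 3 of 16 adipose libraries and Col1a1 in 2 of 16. The levels of both genes followed the background across the adipose libraries, with Pearson's r of log2 values of 0.65 for Plin1 and 0.56 for Col1a1 (n = 16, as a description). With the receptor level as a covariate, the log2 difference of Plin1 was 1.87 (SE 1.08, edgeR adjusted p = 0.364) and that of Col1a1 1.72 (SE 0.98, edgeR adjusted p = 0.353), so neither was called. That covariate also took the calls over all genes down to 1492, against 6278 without it.

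The other genes had medians far above it, though not in every library. Car3, Dcn and Gsn exceeded 3 times the background in 16 of 16 adipose libraries, Adipoq in 15, and Cfd, Cidec, Retn and Col3a1 in 13. Retn and Col3a1 lay at or below the background itself in 2 libraries each. The median ratio to the background was 330 for Car3, 327 for Dcn, 295 for Retn, 265 for Gsn, 121 for Adipoq, 52.8 for Cfd, 42.8 for Cidec and 22.4 for Col3a1, and their r with the background was between -0.27 and 0.12. On the same per-kilobase scale, the median levels in adipose libraries ran from Car3 (119 CPM per kilobase) over Dcn (81.4), Gsn (44.6), Retn (40.8), Adipoq (24.2), Cfd (13) and Cidec (9.2) to Col3a1 (4.34). Across the 16 libraries each of these genes varied with a standard deviation of 0.548 to 1.27 times its mean, so that neighbours in this order do not separate beyond their spread. Monocytes had Gsn above 3 times the background in 9 of 9 libraries, Dcn in 2, Cfd and Retn in 1 and the other genes in 0.

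No adipose sort carried either set apart from the others. The adipocyte sum averaged 213 ± 99.3 CPM in pop1, 285 ± 231 in pop2, 361 ± 155 in pop3 and 304 ± 158 in pop4 (SD, n = 4 libraries each). The sum of Dcn, Col1a1 and Col3a1 averaged 201 ± 292 CPM in pop1, 189 ± 82.1 in pop2, 489 ± 450 in pop3 and 160 ± 104 in pop4. Pop3 had the highest mean of both sums, with a spread that covers the other means.

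Between the Tim4+ and the Tim4- populations 0 of the 10 genes was called by edgeR (15.1% of all genes were called), 2 had an unadjusted p under 0.05 (32% of all genes) and DESeq2 called 0 (24.1% of all genes). Col3a1 averaged 25 ± 28.8 CPM in Tim4+ libraries and 57.5 ± 66.7 CPM in Tim4- libraries (SD, n = 8 each), with a log2 difference of -1.67 (SE 0.66, edgeR adjusted p = 0.0869). Dcn averaged 167 ± 171 CPM in Tim4+ libraries and 265 ± 285 CPM in Tim4- libraries, with a log2 difference of -1.14 (SE 0.55, edgeR adjusted p = 0.155). The Col3a1 difference rested partly on the pop1 libraries: without pop1 CD 8, the 1 pop1 library with a high level, it was -2.99 and was called (edgeR adjusted p = 0.00599). For Dcn, the difference was -1.78 and was called without pop1 HFD 3 (edgeR adjusted p = 0.0488), while within the CD libraries alone the Dcn difference was 0.14 and the Col3a1 difference -0.66 (edgeR adjusted p = 0.802).

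In pop1 against pop2, 0 of 10 genes was called by edgeR (0.466% of all genes), 0 had an unadjusted p under 0.05 (9.81% of all genes) and DESeq2 called 0 (3.3% of all genes). The lowest adjusted p was that of Col3a1, 0.527, at 22.3 ± 42.1 CPM in pop1 and 27.7 ± 12.2 CPM in pop2 (SD, n = 4 each). In pop4 against pop3, 0 of 10 was called by edgeR (6.57% of all genes), 2 had an unadjusted p under 0.05 (26.2% of all genes) and DESeq2 called 1 (14.9% of all genes). That 1 was Plin1, at 0.162 ± 0.12 CPM in pop4 and 1.49 ± 0.628 CPM in pop3 (edgeR log2 difference -3.05, SE 0.98, adjusted p = 0.0606; DESeq2 adjusted p = 0.0167). The receptor background moved with it, with 80.1 to 205 CPM summed over the receptor genes in pop4 libraries and 198 to 685 CPM in pop3 libraries; with the receptor level as a covariate the Plin1 difference was -2.70 (SE 1.58, edgeR adjusted p = 0.664). Col3a1 averaged 20.4 ± 6.42 CPM in pop4 and 94.6 ± 81.8 CPM in pop3 (log2 difference -2.17, SE 0.94, edgeR adjusted p = 0.147).

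**Figure D2:**
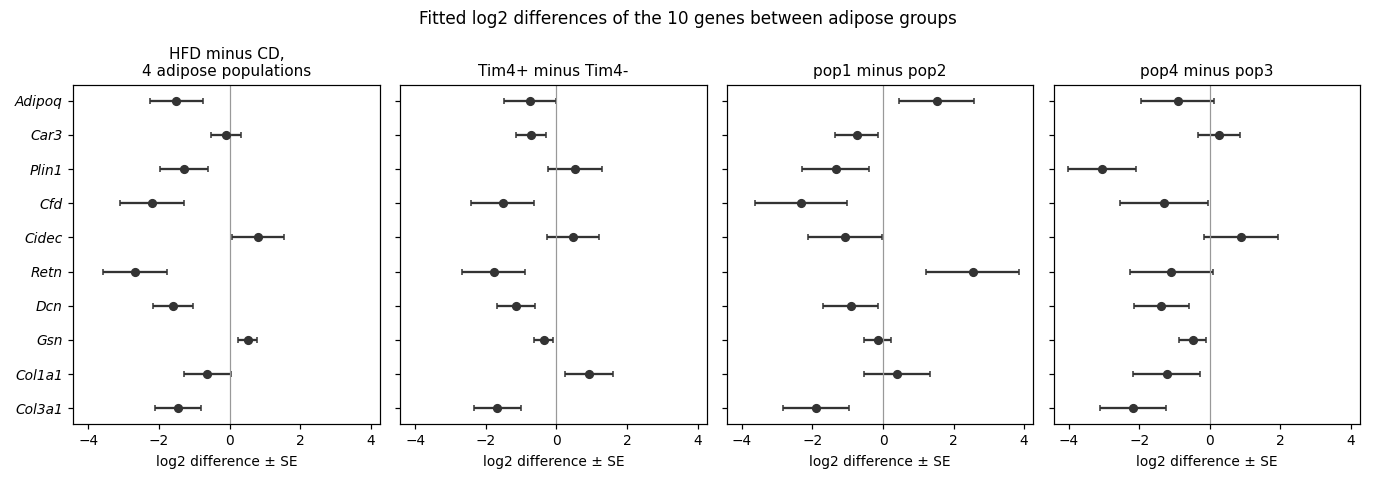
Fitted log2 differences (horizontal, points) with standard errors (bars) of the 10 genes (vertical) for HFD minus CD over the 4 adipose populations, Tim4+ minus Tim4-, pop1 minus pop2 and pop4 minus pop3. No point passed the adjusted threshold in these 4 comparisons, and the points for Retn and Dcn on diet lie at -2.68 and -1.60.

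Diet left the adipocyte and stromal transcripts without a call. Over the 4 adipose populations, 0 of 10 genes was called by edgeR (5.34% of all genes were called), 4 had an unadjusted p under 0.05, all lower on HFD (19.8% of all genes in either direction), and DESeq2 called 1 (11.6% of all genes). The median log2 difference was -1.37 over the 10 genes and -0.12 over all genes. Retn averaged 17.2 ± 20.9 CPM on HFD and 48 ± 35.7 CPM on CD (SD, n = 8 each), with a log2 difference of -2.68 (SE 0.91, edgeR adjusted p = 0.0915), and this was the gene that DESeq2 called (adjusted p = 0.0476). Leaving out single libraries moved the Retn difference between -4.16 without pop3 HFD 3, where edgeR called it (adjusted p = 0.0202), and -0.10 without pop1 CD 8, where the 1 pop1 CD library left had no Retn count. Dcn averaged 130 ± 141 CPM on HFD and 302 ± 281 CPM on CD, with a log2 difference of -1.60 (SE 0.55, edgeR adjusted p = 0.0989). Cfd had a log2 difference of -2.21 (SE 0.91, edgeR adjusted p = 0.174) and Col3a1 -1.45 (SE 0.65, edgeR adjusted p = 0.217). Car3 averaged 188 ± 108 CPM on HFD and 162 ± 101 CPM on CD, with a log2 difference of -0.10 (SE 0.43, edgeR adjusted p = 0.94). The fitted value averages the log2 differences of the 4 populations, which need not have the sign of the difference between the CPM means. The adipocyte sum averaged 272 ± 122 CPM on HFD and 309 ± 197 CPM on CD, and the sum of Dcn, Col1a1 and Col3a1 165 ± 181 CPM on HFD and 355 ± 344 CPM on CD (SD, n = 8 each), so both sums overlapped between the diets. Because all adipose CD libraries carry CD-CD titles, diet and title series cannot be told apart here.

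Within single adipose populations the members with an unadjusted p under 0.05 for diet were in the Tim4+ sorts, again without a call by edgeR. In pop1, 0 of 10 genes was called (0.436% of all genes), 4 had an unadjusted p under 0.05 (11.1% of all genes) and DESeq2 called 2 (4.34% of all genes). Those were Dcn, with a log2 difference of -4.21 (SE 1.23, edgeR adjusted p = 0.16), and Col3a1, with -5.11 (SE 1.53, edgeR adjusted p = 0.169). The Dcn difference was -2.79 without pop1 CD 8 and -6.67 without pop1 HFD 3. The Col3a1 difference rested on pop1 CD 8, without which it was 0.11. In pop2, 0 of 10 was called by edgeR (4.19% of all genes), 3 had an unadjusted p under 0.05 (17% of all genes) and DESeq2 called all 3 (11.2% of all genes). Retn averaged 0.266 ± 0.377 CPM on HFD and 59.3 ± 51.5 CPM on CD (SD, n = 2 each; edgeR log2 difference -7.98, SE 2.34, adjusted p = 0.0575). Adipoq averaged 3.15 ± 3.83 CPM on HFD and 90.2 ± 116 CPM on CD (edgeR log2 difference -5.07, SE 1.74, adjusted p = 0.116). The Adipoq difference was -1.68 without pop2 CD 8 and -7.83 without pop2 HFD 3. Gsn went the other way, at 135 and 326 CPM on HFD and 66 and 41.4 CPM on CD (edgeR log2 difference 1.87, SE 0.55, adjusted p = 0.0594), and its difference was 1.09 without pop2 HFD 3.

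In pop3, 0 of 10 was called by edgeR (0.0943% of all genes), 0 had an unadjusted p under 0.05 (11% of all genes) and DESeq2 called 0 (4.12% of all genes). In pop4 the counts were the same, 0, 0 and 0 (0.0354%, 6.99% and 0.772% of all genes). In monocytes, 0 of 10 was called by edgeR (0.0059% of all genes), 1 had an unadjusted p under 0.05 (6.89% of all genes), which was Col3a1 near the floor, and DESeq2 called 0 (0.825% of all genes). The difference of the diet effect between Tim4+ and Tim4- populations was called by edgeR for 0 of 10 genes (0.637% of all genes), 2 had an unadjusted p under 0.05 (12.7% of all genes) and DESeq2 called 0 (3.04% of all genes). Those were Dcn, at -2.54 (SE 1.10, edgeR adjusted p = 0.337), and Car3, at -1.89 (SE 0.86, edgeR adjusted p = 0.364). A difference in diet effect between Tim4+ and Tim4- sorts is thus not shown.

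As a plain order of libraries, 1 gene had both HFD libraries above both CD libraries in pop1 and 3 had them below, where 16.4% and 25.4% of all genes did so. In pop2 the counts were 3 above and 4 below, where 34.9% and 14.8% of all genes did so, and the 4 were Adipoq, Cfd, Retn and Dcn. In pop3, 1 was above and 1 below (17.2% and 22.8% of all genes), and in pop4, 0 were above and 2 below (14% and 21.6%).

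The mix of adipocyte transcripts was not constant from library to library. Car3 made up 12.7% of the adipocyte sum in pop1 HFD 2, where Adipoq made up 60.1%, and 83.2% in pop4 HFD 3, where Adipoq made up 6.18%. The ratio of Car3 to Adipoq counts ran from 0.211 in pop1 HFD 2 to 234 in pop2 HFD 2, with a median of 5.93. Across the 16 adipose libraries the 15 pairs of adipocyte genes correlated at -0.09 to 0.51 (Pearson's r of log2(CPM + 1), median 0.21), with the highest between Adipoq and Retn. The ratio of Dcn to Col3a1 counts ran from 1.8 in pop4 CD 7 to 108 in pop1 CD 7, with a median of 6.25. The 6 pairs of stromal genes correlated at 0.01 to 0.74 (median 0.38), with the highest between Dcn and Col3a1. These correlations describe libraries that may share animals or a sort, and no p is attached.

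Both sets moved together only loosely. The adipocyte sum correlated with the sum of Dcn, Col1a1 and Col3a1 at a Pearson's r of 0.36 and a Spearman's rho of 0.26 over the 16 adipose libraries, and with the sum of all 4 stromal genes at 0.15 and 0.20. The 24 pairs of an adipocyte with a stromal gene had a median r of 0.13, from -0.45 between Retn and Gsn to 0.75 between Plin1 and Col1a1, the 2 genes closest to the background. The stromal sum without Gsn was 0.0503 to 8.32 times the adipocyte sum and exceeded it in 4 of 16 libraries. The extremes were pop1 HFD 2, with 6.64 CPM of stromal against 132 CPM of adipocyte transcripts, and pop3 CD 7, with 1090 against 131 CPM. The library with the most adipocyte transcripts, pop2 CD 8 at 627 CPM, had 204 CPM of stromal ones.

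**Figure D3:**
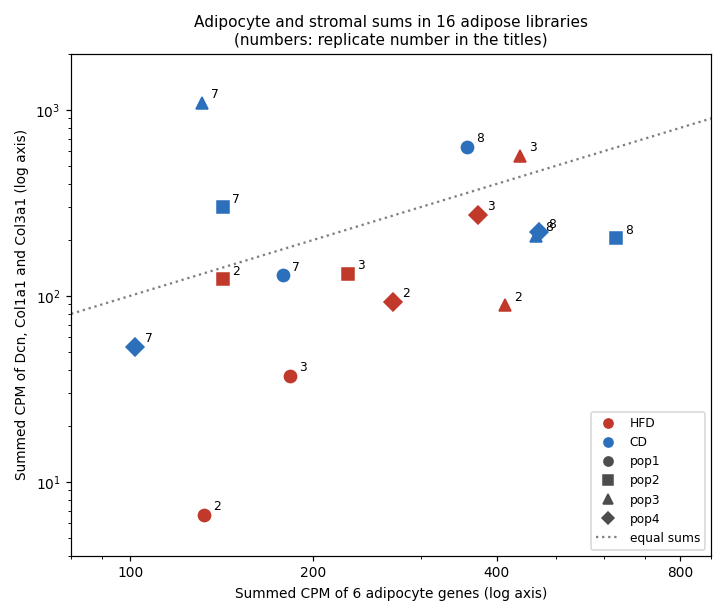
Summed CPM of Dcn, Col1a1 and Col3a1 (vertical) against the summed CPM of the 6 adipocyte genes (horizontal), both on log axes, for the 16 adipose libraries; colour gives the diet, shape the population, the number the title number, and the dotted line equal sums. The 4 libraries above the line are pop1 CD 8, pop2 CD 7, pop3 HFD 3 and pop3 CD 7.

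The adipocyte level went with the number in the library title. In each of the 4 populations, the HFD library numbered 3 had a higher adipocyte sum than that numbered 2, by 1.06 to 1.6 times, and the CD library numbered 8 a higher one than that numbered 7, by 2.01 to 4.63 times. The CD 8 libraries had 357, 627, 464 and 470 CPM in pop1 to pop4, and the CD 7 libraries 178, 142, 131 and 102 CPM. The HFD 3 libraries had 183, 228, 437 and 373 CPM, and the HFD 2 libraries 132, 142, 413 and 270 CPM. This order was seen after the values were known and carries no test. Of the single genes, Retn kept it in 8 of 8 pairs, as did 0.259% of all genes. The pop2 HFD pair of Retn was 0 against 0.533 CPM, under the floor of 0.799 CPM in pop2 HFD 3. Car3 kept the order in 7 pairs, Cfd, Cidec, Plin1 and Col1a1 in 6, Adipoq, Dcn and Col3a1 in 5, and Gsn in 2. In pop4 all Plin1 values were under the floor. For fewer than 8 pairs the share of all genes was not computed, so these counts have no background to be read against. The sum of Dcn, Col1a1 and Col3a1 kept it in 4 of 4 HFD pairs and 2 of 4 CD pairs, and in 6 of the 8 pairs the same library was higher in both sets. The labels do not say whether a number stands for 1 animal, and across all genes the libraries with the same number did not deviate together.

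**Figure D4:**
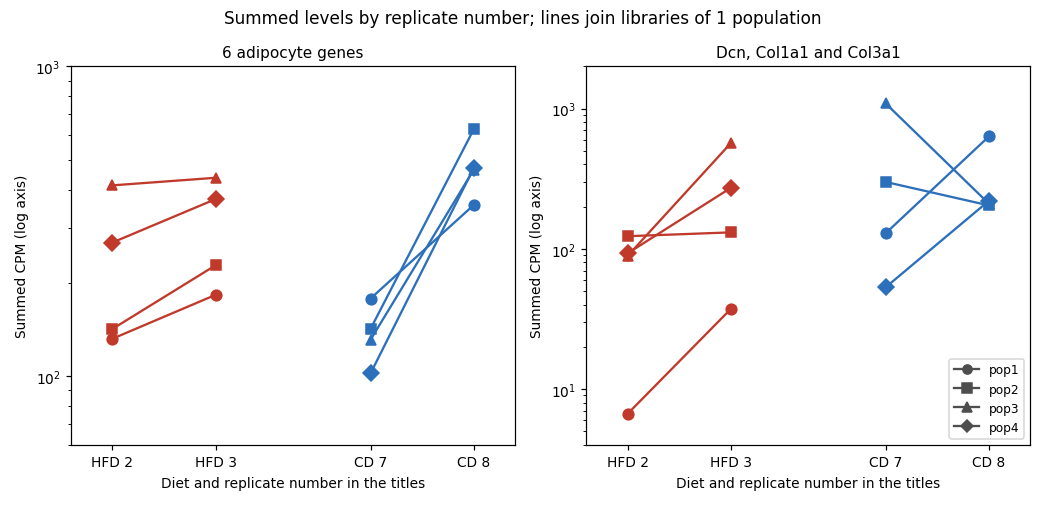
Summed CPM (vertical, log axis) of the 6 adipocyte genes (left) and of Dcn, Col1a1 and Col3a1 (right) by diet and title number (horizontal); each line joins the 2 libraries of 1 population on 1 diet. On the left all 8 lines go up from 2 to 3 or from 7 to 8, by 2.01 to 4.63 times in CD; on the right 2 of the 4 CD lines, pop2 and pop3, go down.

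Further stromal genes were high in the 3 libraries that led in Dcn and Col3a1. In pop1 CD 8, pop3 CD 7 and pop3 HFD 3, the collagen gene Col5a2 was at 59.5, 115 and 52.3 CPM, against at most 10.8 CPM in the other 13 adipose libraries, and Col6a1 at 55.8, 37.5 and 49.7 CPM, against at most 3.41 CPM. Col6a2, Col6a3 and Smoc2 also stood above the other 13 libraries in all 3, which makes 5 of 25 other stromal genes, where 0.216% of 14365 genes did so. The libraries were not alike beyond this. Pdgfra, a receptor that marks adipose progenitors, was at 46.5 CPM in pop3 CD 7, at 1.39 CPM in pop1 CD 8 and at 0.587 CPM in pop3 HFD 3, and Col1a1 was at 4.31, 11.4 and 1.99 CPM in them.

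Most of the other genes of both lists were higher in adipose libraries than in monocytes. Of 24 other adipocyte genes 14 were called higher and 3 lower by edgeR, with a median log2 difference of 2.43, and of 24 other stromal genes tested 18 were called higher and 2 lower, with a median of 2.83, against 0.19 over all genes, of which 18.5% were called higher. The 3 adipocyte genes called lower were Dgat2, an enzyme of triglyceride synthesis (edgeR log2 difference -2.84), Agpat2, another (-1.10), and Pnpla2, a triglyceride lipase (-0.95). Cd36, a fatty acid transporter that macrophages also make, averaged 1650 ± 508 CPM in adipose libraries and 101 ± 33.9 CPM in monocytes (SD, n = 16 and 9; edgeR log2 difference 3.76, SE 0.21, adjusted p = 1.25e-11). Lpl, the lipoprotein lipase, averaged 764 ± 390 CPM in adipose libraries and 226 ± 61.3 CPM in monocytes, Fabp4, a fatty acid binding protein, 262 ± 54.8 CPM in adipose libraries and 12.4 ± 6.61 CPM in monocytes, and Pde3b, a phosphodiesterase, 168 ± 53.5 CPM in adipose libraries and 34.5 ± 20.1 CPM in monocytes. All 3 were called. Scd1, a desaturase, averaged 166 ± 101 CPM in adipose libraries and 0.379 ± 0.335 CPM in monocytes (edgeR adjusted p = 1.62e-09). Macrophages are known to make several of these, so the list does not speak for adipocytes alone. Lep, the leptin gene of adipocytes, was at 0.251 to 230 CPM in adipose libraries and at 0.11 to 0.615 CPM in monocytes.

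Among other stromal genes, Sparc, a matrix protein, averaged 73.7 ± 46.5 CPM in adipose libraries and 2.43 ± 6.42 CPM in monocytes (edgeR log2 difference 5.22, SE 0.87, adjusted p = 8.7e-05). Col1a2, the partner chain of Col1a1, averaged 25.5 ± 39.5 CPM in adipose libraries and 0.2 ± 0.135 CPM in monocytes (edgeR adjusted p = 0.000177), and Lum, the proteoglycan lumican, 28.7 ± 47.1 CPM in adipose libraries and 0.128 ± 0.144 CPM in monocytes (edgeR adjusted p = 0.00168). Serpinf1 averaged 32.6 ± 36.9 CPM in adipose libraries and 5.45 ± 7.75 CPM in monocytes and did not pass the test (edgeR adjusted p = 0.14). The 2 that were lower, Dpp4 and Pi16, were at 24.9 ± 33.4 and 1.79 ± 4.03 CPM in adipose libraries and at 121 ± 43.2 and 20.5 ± 10.5 CPM in monocytes.

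Marker lists of other cells of the tissue were also read, as sums that depend on the length of each list. The 25 other stromal genes summed to 101 to 1130 CPM in adipose libraries (median 256) and to 106 to 220 CPM in monocytes (median 169). Dpp4 (mean 121 CPM) and Pi16 (20.5 CPM) led that sum in monocytes, where each other gene of the list averaged at most 5.45 CPM. The median sums were 38.2 CPM in adipose libraries and 28.4 CPM in monocytes for endothelial genes, 47.8 CPM in adipose libraries and 66.3 CPM in monocytes for mural genes, and 9.92 CPM in adipose libraries and 1.28 CPM in monocytes for mesothelial genes. The range of the summed CPM was 11.9 to 151 for 12 endothelial genes in adipose libraries and 5.68 to 62.1 in monocytes, 6.92 to 134 for 8 mural genes and 19.7 to 93.9 in monocytes, and 3.4 to 47.6 for 9 mesothelial genes and 0.214 to 3.64 in monocytes. By edgeR, 5 of the 12 endothelial genes tested were called higher in adipose libraries and 2 lower. Of 7 mural genes tested 4 were called higher and 1 lower, and of 7 mesothelial genes tested 2 were called higher. Of all genes, 18.5% were called higher and 18.5% lower. In monocytes Acta2 led the mural sum (mean 47.7 CPM) and Flt1 the endothelial sum (21.7 CPM). In adipose libraries these 2 genes averaged 7.93 and 4.46 CPM, and Rgs5 (22.7 CPM) and Eng (15 CPM) led. Blood cell lists were read too, with 1.79 to 742 CPM for 8 red cell genes in adipose libraries and 460 to 1670 CPM in monocytes. The 7 platelet genes summed to 176 to 997 CPM in adipose libraries and to 136 to 485 CPM in monocytes. Pf4 made up most of that adipose sum, with a mean of 615 CPM. Ppbp averaged 41.8 CPM there and each other platelet gene at most 2.39 CPM, while in monocytes Ppbp led, at 181 CPM. The summed levels of 8 neutrophil, 6 B cell and 6 T cell genes reached 337, 115 and 42.1 CPM in adipose libraries, against 314, 104 and 227 CPM in monocytes. Among the neutrophil genes, Mmp9 led in adipose libraries, with a mean of 119 CPM, and Csf3r in monocytes, with 125 CPM. In adipose libraries Csf3r averaged 24.5 CPM and each other neutrophil gene at most 6.01 CPM. The part of these cell lists in the results was not tested.

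The genes whose levels followed each set most closely were sought among 8258 genes with a mean of at least 20 CPM over the 16 adipose libraries, by Pearson's r of log2(CPM + 1) with the mean of the set. For the adipocyte set they were Sncg (r = 0.82), Cd80 (0.77), Tmem106b (0.76), Lpxn (0.75) and Mob4 (0.73). Sncg, the gamma-synuclein gene, was at 0 to 64.6 CPM in adipose libraries and at 0 to 0.357 CPM in monocytes, and the other 4 were also present in monocytes. For the stromal set they were Col4a1 (0.86), Zfand5 (0.79), Riok2 (0.73), Serping1 (0.73) and Serpinf1 (0.72). Col4a1, a chain of basement membrane collagen, was at 0.905 to 117 CPM in adipose libraries and at 0.214 to 15.4 CPM in monocytes. These r were picked as the highest of 8258 over 16 libraries, so they show no link by themselves, and no p is attached.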

How the data were processed

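The authors deposited raw read counts for 24537 RefSeq gene models in 25 libraries. The submitters' processing notes name STAR 2.5.3a, HOMER and the mm10 build. Whether counting used strand, how duplicates and multi-mapping reads were handled, and which annotation release was counted are not given in the sources used here, so reads of overlapping or antisense genes cannot be told apart. CPM was computed from the deposited counts and the library totals. The 10 genes and all marker lists were chosen with earlier results of these data known.

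A single model with 10 group means was fitted to all 25 libraries in edgeR 4.0.16 (R 4.3.3): filterByExpr by group (16961 genes, all 10 members among them), TMM factors (0.89 to 1.15), estimateDisp, robust glmQLFit and glmQLFTest, with 15 residual degrees of freedom, a common biological coefficient of variation of 0.749, Benjamini-Hochberg adjustment over all genes tested and a threshold of 0.05. Each contrast was a difference of group means (the 8 adipose with the 2 monocyte groups, Tim4+ with Tim4-, pop1 with pop2, pop4 with pop3, HFD with CD overall and per population, and the difference of diet effects). Standard errors are the log2 difference divided by the square root of F.

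Named genes were the 10 members and the 5 genes most correlated with each set. From the other adipocyte and the other stromal list, the 4 genes with the highest mean CPM in adipose libraries were named. The 4 with the lowest adjusted p in each of these lists were named too. Genes named from the macrophage, monocyte, endothelial, mural, platelet and neutrophil lists fell outside this rule. Lep, Dgat2, Agpat2, Pnpla2, Pdgfra, Col5a2, Col6a1, Col6a2, Col6a3 and Smoc2 were named after their values were seen. Nothing says that libraries come from separate animals, so p-values measure only the spread between libraries. Alternatives were RLE and upper-quartile factors, DESeq2 1.42.0, no count filter, each library left out, the title number as a replicate block, the adipose or the CD libraries alone, the receptor genes as a covariate, and, chosen after seeing the data, leaving out pop1 CD 8, pop3 CD 7 and pop3 HFD 3 together.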

Additional observations from a re-analysis of the deposited data

Results flagged for a closer look

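Among the 6 CD libraries of monocytes, Retn was at 0 in 5 and at 0.11 CPM, a single count, in the library numbered 8, which set that library apart from the others. A single count is under the floor of 0.33 CPM and must fall in 1 library.

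In 3 genes the diets ordered the libraries in opposite ways in a pair of populations, and the difference between those populations was not tested. Plin1 averaged 0.0754 CPM in pop1 HFD and 2.4 CPM in pop1 CD, with both HFD libraries lower, and 1.47 CPM in pop2 HFD and 0.975 CPM in pop2 CD, with both HFD libraries higher. Car3 averaged 59.7 CPM in pop1 HFD and 167 CPM in pop1 CD, and 288 CPM in pop3 HFD and 123 CPM in pop3 CD. Col1a1 averaged 3.14 CPM in pop2 HFD and 2.1 CPM in pop2 CD, and 1.51 CPM in pop3 HFD and 3.63 CPM in pop3 CD. Plin1 and Col1a1 are the 2 genes near the receptor background.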

How the results depend on the processing

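In adipose macrophages against monocytes 10 of the 10 genes were called. Adipoq, Car3, Cidec, Dcn and Col3a1 were called in all 33 alternatives, Cfd and Col1a1 in 32, Retn in 30, Plin1 in 19 and Gsn in 11. With the receptor background as a covariate 6 genes were called, and the 4 lost were Cfd (log2 difference 6.56), Col1a1 (1.72), Plin1 (1.87) and Gsn (0.90), all with larger errors (of all genes 1492 were called, against 6278). Leaving out single libraries gave 7 to 10 genes. Retn lost its call without pop1 CD 8, without pop2 HFD 3 and without the 3 libraries highest in Dcn and Col3a1, where the library left in its group had 0 counts and the fit gave no usable error.

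In the other comparisons, where 0 genes were called, single-library omissions gave 0 to 2 between Tim4+ and Tim4-, 0 to 2 for diet over the adipose populations and 0 to 1 for diet in pop2, and 0 in pop1 against pop2, in pop4 against pop3, for diet in pop1, pop3, pop4 and monocytes and for the difference of diet effects. For diet over the adipose populations, Retn and Dcn were called without pop3 HFD 3 (edgeR log2 differences -4.16 and -2.12), Dcn without pop1 HFD 3 (-2.22) and Retn without pop1 CD 7 (-2.93). In pop2, Retn was called without pop1 CD 7, pop1 CD 8, pop3 HFD 2 or pop3 HFD 3, and Gsn without pop2 HFD 2 or pop3 CD 7. DESeq2 called 1 gene in pop4 against pop3, 1 for diet over the adipose populations, 2 in pop1 and 3 in pop2. In pop2, RLE factors and upper-quartile factors called 1 each, Gsn, and leaving out the 3 libraries highest in Dcn and Col3a1 called 1, Retn. That omission also gave calls between Tim4+ and Tim4-, but for neither Col3a1 (edgeR log2 difference -2.06) nor Dcn (-0.59). The Dcn difference between Tim4+ and Tim4- changed sign to 0.32 with the covariate and to 0.14 in the CD libraries alone, and the Col3a1 difference for diet in pop1 ran from -6.09 to 0.11 over single-library omissions, changing sign without pop1 CD 8 and, at 0.11 too, without the 3 libraries. The causes were not tested.

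Counts over all genes moved by over 1.5 times in many settings. For Tim4+ against Tim4- they were 2554 in the fit reported, 4092 by DESeq2, 422 with the covariate, 397 in the CD libraries alone and 1534 without the 3 libraries. For pop1 against pop2 they were 79, 559 by DESeq2 and 19 with the adipose libraries alone. For pop4 against pop3 they were 1114, 2524 by DESeq2, 145 with the covariate and 294 in the CD libraries alone. For diet over the adipose populations they were 906, 1966 by DESeq2, 524 with the covariate and 300 with the adipose libraries alone. For diet in pop1 they were 74, 736 by DESeq2, 2 with the adipose libraries alone, 33 with the covariate and 36 without the filter. In pop2 they were 711, 1903 by DESeq2, 449 with the covariate and 249 with the adipose libraries alone. In pop3 they were 16, 699 by DESeq2, 1 with the covariate, 0 with the adipose libraries alone and 111 without the 3 libraries. In pop4 they were 6, and 131 by DESeq2, and in monocytes 1, 140 by DESeq2 and 2 with upper-quartile factors. For the difference of diet effects they were 108, 516 by DESeq2, 58 with RLE and 47 with upper-quartile factors, 17 with the covariate and 2 with the adipose libraries alone.

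With the title number as a replicate block, 8 genes were called in adipose against monocytes (Plin1 and Gsn were lost), of 3297 genes in all, and 0 between Tim4+ and Tim4-, in pop1 against pop2, in pop4 against pop3 and for the difference of diet effects, of 1749, 26, 554 and 0 genes in all. The numbers did not pair the libraries: differences between libraries of the same numbers correlated at -0.019 to 0.069 across 16961 genes. No paired analysis was possible for diet because the HFD and CD libraries of the adipose populations share no number. Depth limits values under 0.321 to 0.799 CPM, where most monocyte values of these genes and much of Plin1 lie, and 2 libraries per adipose group leave large errors within single populations.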
